A study of Solanum lycopersicum with 8 samples.

Results

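The shoot apical meristem of the tomato late termination (ltm) mutant with 6 leaves was compared with that of the wild type (WT) with 4 leaves, an older mutant apex against a younger wild-type apex. The comparison asks whether the older mutant apex has the transcriptome of the younger wild-type apex across all expressed genes. Genes were taken if their deposited value was at least 10 in at least 2 of the 4 libraries of these groups, which kept 18697 of 34722 genes. Of these, 17795 had a value of at least 10 in all 4 libraries. A further 59 passed only through the 2 mutant libraries and 140 only through the 2 wild-type libraries, so these had to differ. The second-highest value was 10.1 in the gene just inside the minimum and 9.997 in the gene just outside it.

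RNA was sequenced from meristems dissected out of acetone-fixed greenhouse seedlings of WT and ltm, with 4 or 6 leaves each, in 2 libraries per group called A and B. No treatment separates the groups, and the background strain and the allele are not known here. Since the labels do not locate the ltm mutation, the mutated gene was not checked. Whether the repeats named in the labels were separate pools of plants is not said, so the p-values rest on a spread between libraries that may be technical.

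The 8 libraries held between 17895357 and 21987881 reads assigned to genes, and the 4 libraries compared here between 19716194 and 21987881. The meristem genes TKN2, TKN1, WUS, CLV3 and LS were present in every library, with TKN2 between 4388 and 6828 normalized reads and WUS, the marker of the stem cell organizing centre, between 152 and 246. The B libraries with 4 leaves stood apart. WT 4 leaves B differed from ltm 4 leaves B by a median absolute log2 difference of 0.121 and from its own replicate WT 4 leaves A by 0.199. The summed values of the 19 genes listed as light-harvesting were 24408 and 33873 in the WT 4 leaves libraries and between 20569 and 21866 in the ltm 6 leaves libraries, with 1 of the 19 at 0 in every library. Their part in the results below was not tested.

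The tomato shoot is sympodial: the apical meristem forms a number of leaves, becomes an inflorescence meristem, and growth goes on from the axillary meristem below it. Floral transition is set by the balance of florigen and its antagonists. It is followed in the meristem by the switching on of MADS-box genes of the FRUITFULL group and then of genes for inflorescence and flower identity. Meristem identity itself rests on KNOX homeobox genes and on the WUSCHEL-CLAVATA loop, while NAC and GRAS transcription factors mark the boundaries at which leaves and axillary buds separate.

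Most genes were at close levels in the older mutant and the younger wild type, and the difference was no smaller than that of either single step. All differences are on the log2(value + 1) scale, ltm 6 leaves minus WT 4 leaves unless stated, and understate the change of low genes. Over the 18697 genes the median absolute log2 difference between the group means was 0.177. The same median was 0.165 between the stages of WT, 0.124 between the stages of ltm, 0.117 between the genotypes with 4 leaves and 0.151 between the genotypes with 6 leaves. These comparisons share libraries, and the values are given side by side. limma called 1 gene (0.00535%) between the genotypes at either stage, and 0 between the stages of WT and 0 between those of ltm. Before adjustment the stages gave 1139 genes (6.09%) in WT and 598 (3.2%) in ltm at a limma p below 0.05. DESeq2 called 9 genes (0.0481%) between the stages of WT, 4 (0.0214%) between those of ltm, 22 (0.122%) between the genotypes with 4 leaves and 36 (0.196%) with 6 leaves. A difference beyond 1 log2 unit, in either direction, was found in 472 genes (2.52%), of which 168 were higher and 304 lower in ltm 6 leaves.

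Single pairs of libraries gave the spread against which these values stand. The 4 pairs of an ltm 6 leaves library with a WT 4 leaves library differed by median absolute log2 differences between 0.178 and 0.249. The 2 libraries of a group differed from each other by 0.199 in WT 4 leaves, 0.149 in ltm 6 leaves, 0.165 in WT 6 leaves and 0.267 in ltm 4 leaves. The range of the pairs across genotype and stage thus overlapped the range of the replicates, whose top came from ltm 4 leaves, a group outside the comparison. The 2 pairs with WT 4 leaves A lay at 0.178 and 0.185, and those with WT 4 leaves B at 0.240 and 0.249. The pairs with WT 4 leaves B were above the replicate values of both compared groups. Without WT 4 leaves B the median absolute log2 difference of the comparison was 0.162, and without WT 4 leaves A it was 0.232.

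**Figure D1:**
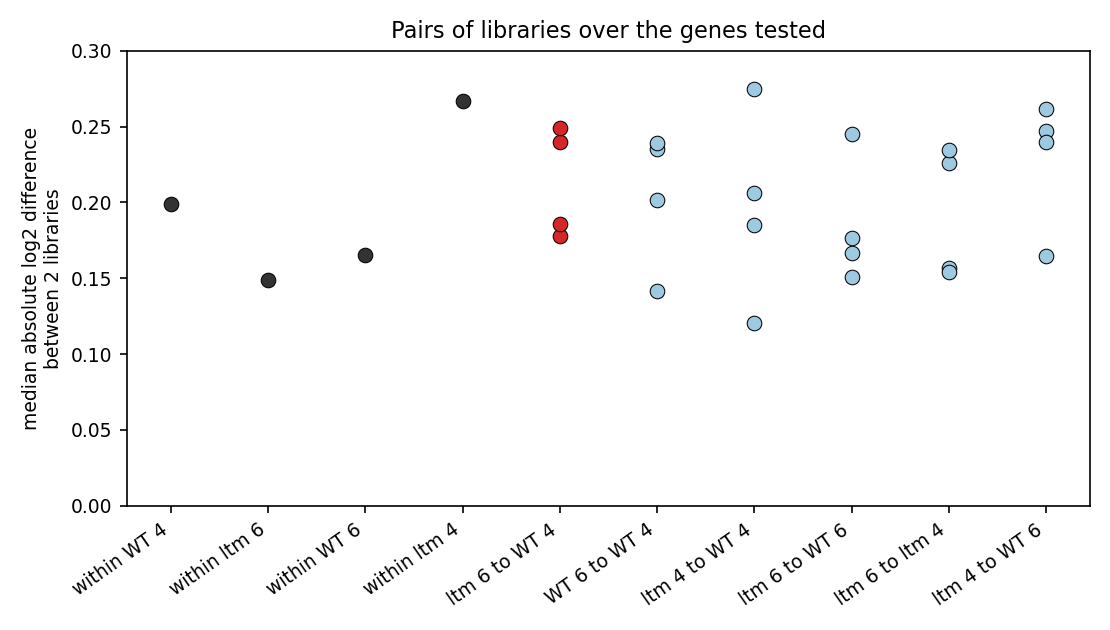
Median absolute log2 difference (vertical axis, log2 units) between 2 libraries over the genes tested, one point per pair of libraries, with replicate pairs in black, the 4 pairs of ltm 6 leaves with WT 4 leaves in red and other pairs in blue. The red points lie between 0.178 and 0.249, and the black points between 0.149 and 0.267. The highest black point is ltm 4 leaves, and those of the compared groups are at 0.199 (WT 4 leaves) and 0.149 (ltm 6 leaves).

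The test called 1 gene over all genes, with limma and Benjamini-Hochberg adjustment at 0.05, which is 0.00535% of those tested. Before adjustment, 1680 genes had a limma p below 0.05, or 8.99%, with 848 higher (4.54%) and 832 lower (4.45%) in ltm 6 leaves. edgeR's quasi-likelihood test on the whole reads behind the values called 1 gene (0.00535%). DESeq2 on the same reads called 67 genes (0.358%), with 42 higher (0.225%) and 25 lower (0.134%). The count of calls thus depends on the tool, and few calls do not show that the groups are alike.

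Likeness was therefore described by the 95% interval of each gene's difference. The interval lay wholly within 1 log2 unit of 0, that is within 2-fold either way, for 14485 genes (77.5%), and wholly beyond it for 18 genes. For the other 4194 genes it did neither. Of these, 3565 had an interval that held 0, so that a 2-fold difference could not be told from none, and 629 had an interval that left out 0 without clearing 1 log2 unit. The share within 2-fold was larger at higher expression. It was 13.6% of the 2693 genes with a mean value under 50, where the median half-width of the interval was 1.07 log2 units. It was 66.2% of the 3484 genes from 50 to 200, 92.7% of the 7331 genes from 200 to 1000 and 96.6% of the 5189 genes at 1000 and over. On simulated data for this comparison with 18480 genes in the step, 78.8% of unchanged genes had such an interval. So had 4 of 50 genes changed 2-fold and 0 of 50 genes changed 4-fold. The spread in the simulation was estimated from these same libraries, so its share of unchanged genes cannot show that the groups are alike.

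**Figure D2:**
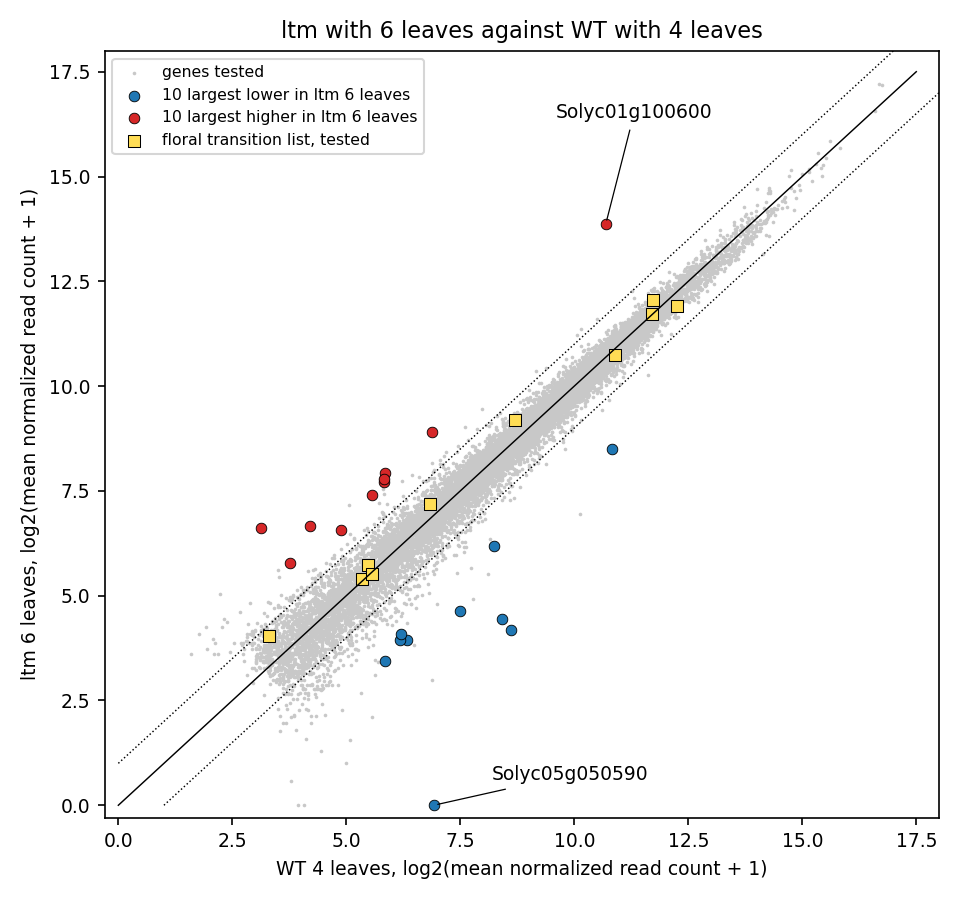
Mean normalized read count of each gene in WT 4 leaves (horizontal axis) and ltm 6 leaves (vertical axis), both as log2(mean + 1), with the line of equality and dotted lines at 1 log2 unit. Of the 18697 genes, 472 differ by more than 1 log2 unit in the fit. The tested floral transition genes (yellow squares) lie near the line of equality, but only 5 of these 10 have an interval within 2-fold.

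The called gene was Solyc01g100600, on chromosome 1, which rose in the mutant. The table pairs its identifiers with no gene names, and no name or function is given for it here. Its value was 1570 and 1730 in WT 4 leaves and 14766 and 15030.5 in ltm 6 leaves, which is 9.03-fold higher (log2 difference 3.18 ± 0.147, SE, n = 2 libraries per group, limma adjusted p = 0.00042). In the other libraries it stood at 1843 and 2020.5 in WT 6 leaves and at 13783 and 10363 in ltm 4 leaves. Both mutant groups were high and both wild-type groups low, with no overlap. Leaving out any single library kept the call, with log2 differences between 3.11 and 3.25.

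The 10 largest differences in each direction, among genes with groups that did not overlap and a limma p below 0.05 before adjustment, gave log2 differences from 1.70 to 3.41 among the higher genes and from -2.01 to -6.39 among the lower ones. Groups did not overlap for 4362 genes (23.3%) in the higher and 4177 (22.3%) in the lower direction, so absence of overlap alone marks little. The highest log2 difference was that of Solyc12g088940 on chromosome 12, at 9.14 and 6.26 in WT 4 leaves and 59.6 and 136 in ltm 6 leaves (3.41 ± 0.44, SE). It passed the minimum only through the group where it was high, so it had to differ, and no test is given for it. It too was low in WT 6 leaves, at 8.96 and 10.2, and high in ltm 4 leaves, at 86.3 and 76.5.

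The lowest log2 difference belonged to Solyc05g050590 on chromosome 5, which had 0 reads in both ltm 6 leaves libraries and 234 reads over both WT 4 leaves libraries. Its value was 32.9 and 207 in WT 4 leaves, 165 and 331 in WT 6 leaves and 0 in all 4 libraries of ltm. Against a floor of 3 reads over the group it was at least 78.2-fold lower in ltm 6 leaves. This gene also passed the minimum only through the group where it was high, so no test is given for it. The next, Solyc01g081250 on chromosome 1, was at 126 and 657 in WT 4 leaves and 17.03 and 16.99 in ltm 6 leaves (log2 difference -4.005 ± 0.68, SE; limma adjusted p = 0.33). The 2 wild-type libraries of this gene differed from each other several-fold, and both lay above the mutant libraries. With a library left out its log2 difference ran from -5.19 to -2.82. In the groups not compared it was at 132 and 204 in WT 6 leaves and at 70.1 and 38.3 in ltm 4 leaves. Another of the 10 lower genes, Solyc03g005780, is one of the genes listed as light-harvesting and is given with them below.

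No floral transition gene was called between the older mutant and the younger wild type, and 5 of the 10 tested had an interval within 2-fold. Of 16 genes listed, 10 passed the minimum, and the median log2 difference over these was 0.17, against -0.0027 over all genes tested. None was called by limma, edgeR or DESeq2 in this comparison. Few genes were called anywhere, so this count says little. Before adjustment, 2 were higher at a limma p below 0.05 (4.54% of all genes) and 0 were lower (4.45% of all genes). The same 10 genes had a median of 1.04 between WT 6 leaves and WT 4 leaves, and of -0.94 between ltm 6 leaves and WT 6 leaves. These comparisons share libraries with the one described here. In bulk tissue, fewer cells of a type and less RNA per cell cannot be told apart.

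The florigen family was near the limit of detection. SFT, the tomato florigen, and SP5G, a repressor of flowering of the same family, were at 0 in all 4 libraries compared. SELF-PRUNING (SP), the antagonist of florigen that sustains vegetative growth, was at 0.914 and 0 in WT 4 leaves and at 10.4 and 4.999 in ltm 6 leaves, from 1 read and 16 reads in all. The ratio was 15.96, with an exact binomial 95% interval (Clopper-Pearson) from 2.48 to 669 that covers counting error only. SP stood at 21.3 and 39.3 in ltm 4 leaves and at 7.97 and 0 in WT 6 leaves, so ltm was the higher genotype at 4 leaves and the groups with 6 leaves overlapped. SP fell under the minimum and was not tested.

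FALSIFLORA (FA), the tomato LEAFY, which is needed for flower meristem identity, was at 4874 and 4887 in WT 4 leaves and at 3568 and 4186 in ltm 6 leaves. Both mutant libraries were lower, by a log2 difference of -0.34 with a 95% interval from -0.73 to 0.06. In the groups not compared FA was at 5091 and 5407 in WT 6 leaves and at 4645 and 3229 in ltm 4 leaves. ANANTHA (AN), the F-box partner of FA, had 0 reads in WT 4 leaves and 9 in ltm 6 leaves, at least 2.99-fold higher with the group floor of 3 reads, and was not tested. The homeobox gene COMPOUND INFLORESCENCE (S), which speeds the maturation of inflorescence meristems, was at 44.8 and 34.5 in WT 4 leaves and at 31.2 and 51.0 in ltm 6 leaves. The groups overlapped, and the log2 difference was 0.02 with an interval from -1.21 to 1.25, too wide to show likeness within 2-fold.

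The FRUITFULL-group MADS-box genes, which rise at floral transition in many plants, were low in both groups. FUL1 was at 35.6 and 51.2 in WT 4 leaves and at 68.1 and 37.0 in ltm 6 leaves, with overlapping groups, while WT 6 leaves stood at 134 and 142. FUL2 was at 104 and 122 in WT 4 leaves, 124 and 166 in ltm 6 leaves and 198 and 387 in WT 6 leaves. For both genes the WT 6 leaves libraries were the highest of all 8, and the log2 differences of the comparison were 0.23 (interval -0.55 to 1.01) and 0.34 (interval -0.44 to 1.12). MBP20, the third gene of the group, was at 6.397 and 11.5 in WT 4 leaves and at 19.9 and 10.997 in ltm 6 leaves, against 71.7 and 109 in WT 6 leaves and 3.05 and 1.01 in ltm 4 leaves. Its groups overlapped in the comparison, with a log2 difference of 0.72 and an interval from -0.57 to 2.01. The libraries of both compared groups lay above those of ltm 4 leaves and below those of WT 6 leaves. MBP10, a close relative of MBP20, had at most 1 read in any of the 4 libraries compared.

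Solyc05g056620 showed the sharpest split of WT 6 leaves from the rest. It was at 124 and 146 there, at 0 and 1.04 in WT 4 leaves, at 0.946 and 0 in ltm 6 leaves and at 0 in both ltm 4 leaves libraries. The older mutant and the younger wild type had 1 read each in all, and the gene was under the minimum. Its name is uncertain, and it is given by its identifier. FYFL, a MADS-box gene, was at 65.8 and 26.1 in WT 4 leaves, 48.3 and 42.0 in ltm 6 leaves and 97.6 and 130 in WT 6 leaves. The compared groups overlapped, and both lay below WT 6 leaves.

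**Figure D3:**
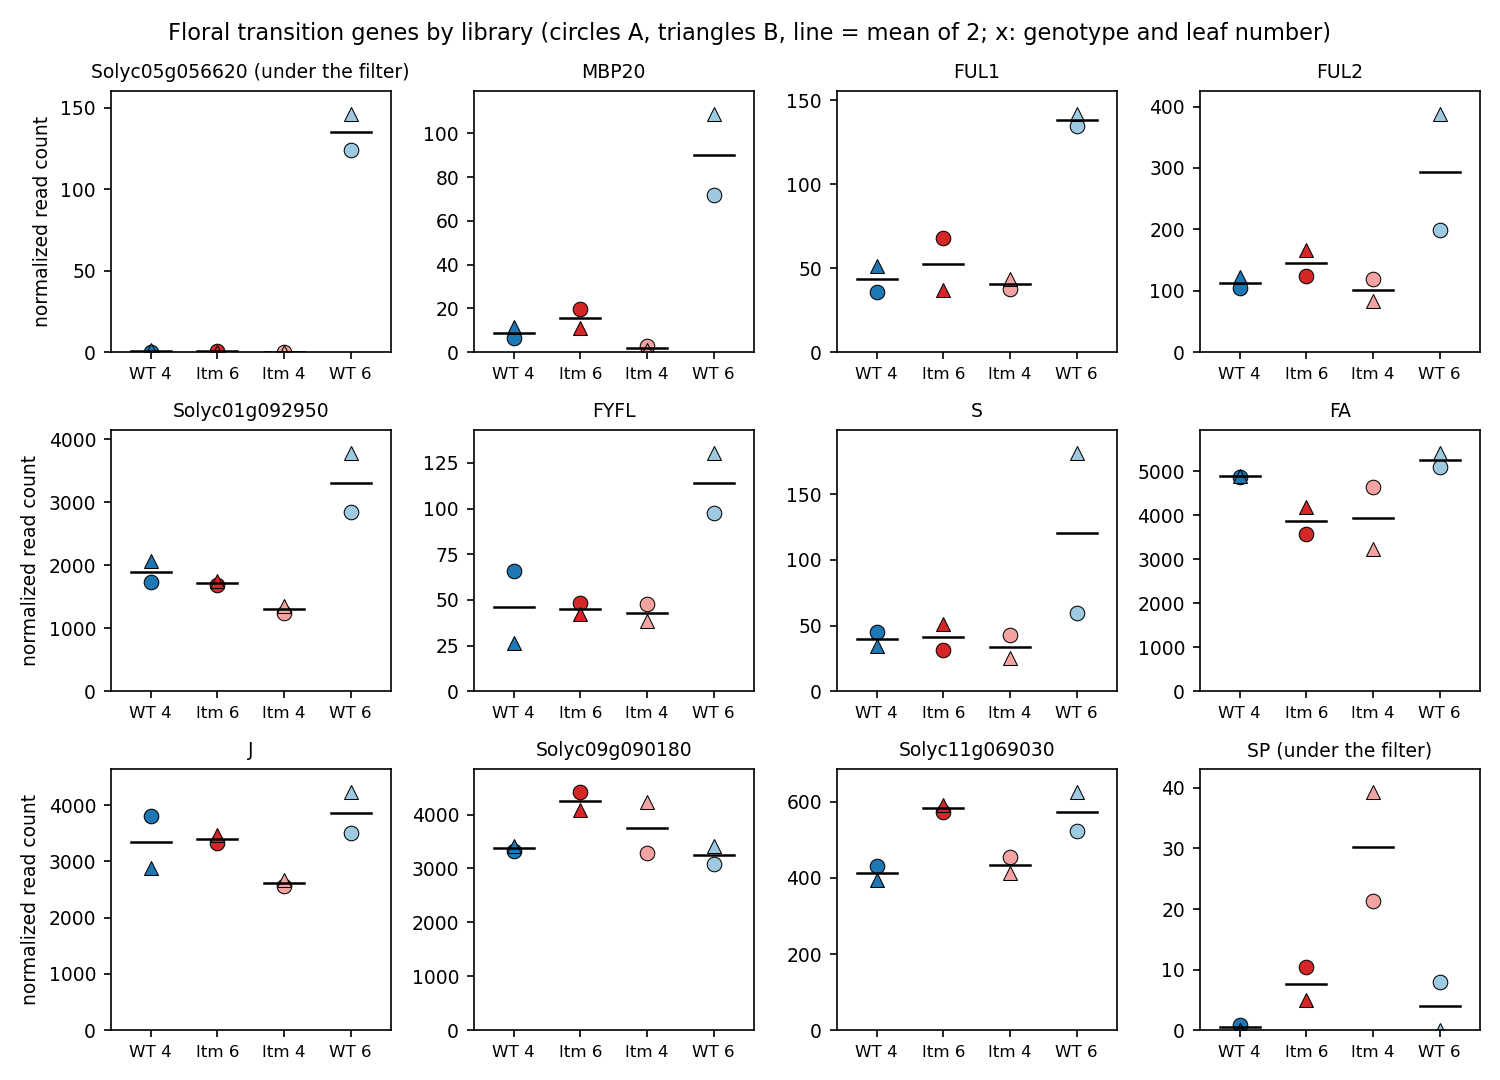
Normalized read counts (vertical axes, each from 0) of 12 genes of the floral transition list in the 8 libraries, by genotype and leaf number, with circles for A, triangles for B and lines for the mean of 2 libraries. Solyc05g056620, MBP20, FUL1 and FUL2 are highest in WT 6 leaves. The intervals between WT 4 leaves and ltm 6 leaves reach past 2-fold for MBP20, FUL1 and FUL2.

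JOINTLESS (J), a MADS-box gene known for the pedicel joint and for holding inflorescence meristems in their state, had an interval within 2-fold. It was at 3799 and 2873 in WT 4 leaves and at 3325 and 3460 in ltm 6 leaves, with overlapping groups and a log2 difference of 0.04 (interval -0.31 to 0.39). Of the 10 tested genes, 5 had an interval within 2-fold: FA, J and 3 genes whose listed names could not be matched to the reference table and which are given by identifier. Solyc01g092950 was at 1724 and 2064 in WT 4 leaves and at 1682 and 1741 in ltm 6 leaves (log2 difference -0.14, interval -0.49 to 0.21), with overlap, against 2839 and 3775 in WT 6 leaves. Solyc09g090180 was at 3325 and 3423 in WT 4 leaves and at 4413 and 4076 in ltm 6 leaves (0.33, interval 0.01 to 0.65). Solyc11g069030 was at 430 and 394 in WT 4 leaves and at 573 and 593 in ltm 6 leaves (0.50, interval 0.19 to 0.81). The last pair of genes were those with a limma p below 0.05 before adjustment, at 0.043 and 0.0055, and neither passed after it, with adjusted p of 0.55 and 0.49. In both the mutant libraries lay above the wild-type libraries.

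The KNOX gene TKN1 stood apart from the other meristem genes. TKN1, a class I KNOX homeobox gene expressed in the meristem and young leaf primordia, was at 1583 and 1299 in WT 4 leaves and at 3320 and 2929 in ltm 6 leaves. Both mutant libraries were well above the wild-type ones, with no overlap (log2 difference 1.12 ± 0.15, SE, interval 0.78 to 1.46). TKN1 was called by DESeq2 (adjusted p = 4.9e-07) and not by limma (adjusted p = 0.22) or edgeR (adjusted p = 0.26). WT 6 leaves was at 1580 and 1532 and ltm 4 leaves at 3050 and 2424, so the mutant groups were above the wild-type groups at both stages. DESeq2 also called TKN1 between the genotypes at 4 leaves (adjusted p = 0.00018) and at 6 leaves (adjusted p = 2.2e-05), in comparisons that share libraries with this one.

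All 7 genes of the meristem list passed the minimum, with a median log2 difference of 0.05, and 5 had an interval within 2-fold. That median was -0.056 against WT 4 leaves A alone and 0.30 against B alone. TKN2, the tomato SHOOT MERISTEMLESS, was at 4976 and 4388 in WT 4 leaves and at 6254 and 6825 in ltm 6 leaves. The mutant libraries were the higher ones, with a log2 difference of 0.48 (interval 0.04 to 0.92) and a limma p of 0.035 before adjustment and 0.55 after it. TKN4, a further KNOX gene, had a log2 difference of 0.19 (interval -0.23 to 0.61). WUS was at 217 and 152 in WT 4 leaves and at 167 and 213 in ltm 6 leaves, with overlap and an interval from -0.46 to 0.56. CLV3, the peptide that limits WUS, was at 187 and 136 in WT 4 leaves and at 127 and 181 in ltm 6 leaves, also with overlap, and its interval from -1.005 to 0.86 was the only one of the WUSCHEL-CLAVATA genes to reach past the 2-fold bound. FAB, a CLAVATA1-type receptor kinase, had a log2 difference of -0.09 (interval -0.59 to 0.40), and Solyc11g064850 one of 0.03 (interval -0.26 to 0.32).

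Of the organ boundary genes, 4 of 5 were higher in ltm 6 leaves, 3 of them at a limma p below 0.05 before adjustment (4.54% of all genes in that direction), and none was called by limma. The median log2 difference of the 5 was 0.32. GOBLET (GOB), the NAC transcription factor that marks the boundary between meristem and organ, was at 3558 and 3050 in WT 4 leaves and at 4951 and 5086 in ltm 6 leaves. The groups did not overlap, and the log2 difference of 0.61 ± 0.13 (SE) was called by DESeq2 (adjusted p = 0.020) and not by limma (adjusted p = 0.41). The interval of GOB, from 0.31 to 0.90, lay within 2-fold, as for 4 of the 5 genes. The DESeq2 calls with the identifiers nearest to GOB (Solyc07g062840) on either side were Solyc07g062820 and Solyc07g062850, with log2 differences of 1.19 and 0.84. Any gene has a nearest call, so this was no test of a local effect. The strand used in counting is not given, so overlapping transcripts could not be told apart.

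LATERAL SUPPRESSOR (LS), the GRAS transcription factor required for axillary meristems, was at 404 and 287 in WT 4 leaves and at 494 and 568 in ltm 6 leaves (log2 difference 0.64, interval 0.20 to 1.08). Both mutant libraries were higher, at a limma p of 0.010 before adjustment and 0.50 after it. BOP3 was at 753 and 791 in WT 4 leaves and at 890.5 and 1039 in ltm 6 leaves (0.32, interval 0.01 to 0.62). BOP1 and BOP2, which with BOP3 encode BLADE-ON-PETIOLE co-regulators, had log2 differences of -0.07 and 0.25, with intervals that held 0. BOP1 overlapped between the groups and BOP2 did not.

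**Figure D4:**
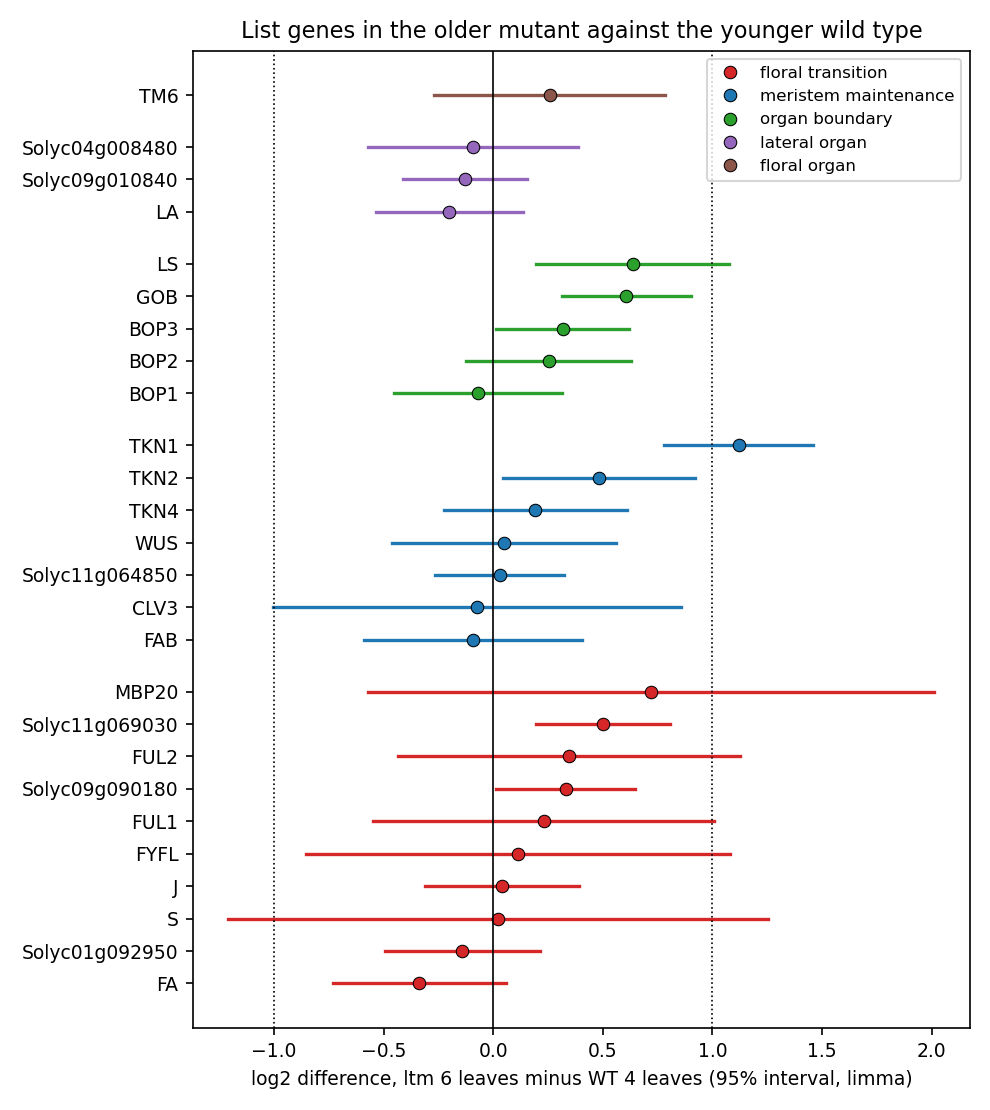
Log2 difference of ltm 6 leaves minus WT 4 leaves (horizontal axis) with its 95% interval from limma for each tested gene of 5 lists, with dotted lines at 1 log2 unit either way. TKN1 reaches from 0.78 to 1.46, while FA, J, WUS, TKN2 and GOB are among the genes whose intervals lie within the dotted lines.

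The genes listed for leaf development had intervals within 2-fold, and most genes of flower organs were under the minimum. LANCEOLATE (LA), a TCP transcription factor that drives leaf differentiation, was at 609 and 565 in WT 4 leaves and at 479 and 544 in ltm 6 leaves (log2 difference -0.20, interval -0.53 to 0.13). The other 2 genes of the lateral organ list, Solyc09g010840 and Solyc04g008480, had log2 differences of -0.13 and -0.09, and all 3 had intervals within 2-fold. TM6, a B-class MADS-box gene, was the 1 of 5 floral organ genes to pass the minimum, at 686 and 507 in WT 4 leaves and at 606 and 822 in ltm 6 leaves, with overlap (0.26, interval -0.27 to 0.78). TAP3, TAG1 and Solyc08g067230 did not exceed 4.57 in any of the 4 libraries compared, and TAGL1 was at 0 in all of them. None of the 6 SEPALLATA-like genes passed the minimum, and the highest value among them was 5.22, for J2 in WT 4 leaves B.

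DESeq2's 67 calls held 2 members of the lists named so far, TKN1 and GOB, and 0 of the 10 floral transition genes tested. Of the 67, 2 passed the minimum only through the group where they were high, Solyc12g088940 and Solyc05g050590. The log2 differences ran from 0.51 to 3.41 among the 42 higher genes and from -0.59 to -6.39 among the 25 lower ones. All 67 kept an adjusted limma p above the threshold except Solyc01g100600. Calls were made on all 12 chromosomes, from 1 on chromosome 12 to 12 on chromosome 1. Counts by chromosome do not show whether calls lie near each other. Solyc01g100620, with an identifier close to that of Solyc01g100600, was also called by DESeq2. It was at 64.0 and 48.0 in WT 4 leaves and at 205 and 214 in ltm 6 leaves. A local effect was not tested. The share of tested genes with a limma p below 0.05 before adjustment was between 8.08% and 10.3% on the 12 chromosomes, against 8.99% over all.

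The genes listed as light-harvesting, which bind chlorophyll in the antenna of the photosystems, were lower in the older mutant without being called. All 18 that passed the minimum had a negative log2 difference, with a median of -0.53, and none was called by limma, edgeR or DESeq2. Groups did not overlap for 9 of the 18, against 22.3% over all genes in that direction, and 2 had a limma p below 0.05 before adjustment (4.45% of all genes). Solyc03g005780 was at 226 and 379 in WT 4 leaves and at 53.0 and 89.97 in ltm 6 leaves (log2 difference -2.07, limma adjusted p = 0.50). Solyc01g105030 was at 1716 and 2022 in WT 4 leaves and at 1294 and 1442 in ltm 6 leaves (-0.45, adjusted p = 0.53). In both the wild-type libraries lay above the mutant libraries. The median of the 18 was -0.34 against WT 4 leaves A alone and -0.66 against WT 4 leaves B alone. It was -0.41 between the stages of WT and -0.63 between those of ltm. Several of these genes are near-identical neighbours, and how reads were split between them is uncertain.

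The medians of other lists depended on which WT 4 leaves library was used. The 17 tested genes listed as heat shock had a median log2 difference of -0.50, which was 0.16 against WT 4 leaves A alone and -0.71 against WT 4 leaves B alone. The summed values of the 22 heat shock genes listed went the other way. They were 143049 and 147306 in the WT 4 leaves libraries and 167421 and 196572 in the ltm 6 leaves libraries. The 14 flavonoid genes had a median of -0.26, or 0.09 against A and -0.35 against B. Of these lists, limma, edgeR and DESeq2 called 0 genes. Before adjustment, 1 heat shock gene was lower at a limma p below 0.05 (4.45% of all genes), and 1 flavonoid gene was higher (4.54%). That gene was MYB12, a regulator of flavonol synthesis, at 143 and 96.1 in WT 4 leaves and at 256 and 239 in ltm 6 leaves. Its libraries did not overlap (1.07 ± 0.25, SE; adjusted p = 0.46), and it went against the direction of 10 of the 14 genes.

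No gene listed for the hormone and age pathways was called. The 5 AP2-like genes, targets of miR172 in Arabidopsis, had a median log2 difference of -0.12, and all 5 intervals lay within 2-fold. The 14 genes listed as SBP-box, the family controlled by miR156, had a median of 0.19, with 11 higher and 3 lower, and 7 intervals within 2-fold. The 10 gibberellin genes had a median of 0.34, or 0.048 against WT 4 leaves A alone and 0.36 against B alone. Among them PRO, the DELLA repressor, had 3155 and 2592 in WT 4 leaves and 3545 and 2752 in ltm 6 leaves, with overlap. The receptor gene GID1b-2 had 275 and 221 in WT 4 leaves and 335 and 357 in ltm 6 leaves, without overlap (0.49, limma adjusted p = 0.52). The 15 Aux/IAA genes, repressors of the auxin response, had a median of -0.11, with 10 intervals within 2-fold. The 12 genes listed as clock genes had a median of 0.36, with 2 higher at a limma p below 0.05 before adjustment (4.54% of all genes). That median was 0.22 against WT 4 leaves A alone and 0.16 against B alone. In the wound and jasmonate list of 12 tested genes the median was -0.09, with 5 higher and 7 lower. Before adjustment 1 was higher and 1 lower at a limma p below 0.05 (4.54% and 4.45% of all genes). Solyc08g074620, the lower one, was at 13634 and 22581 in WT 4 leaves and at 11621 and 6720 in ltm 6 leaves (-0.99, adjusted p = 0.52). The higher one, LOXD, a lipoxygenase of jasmonate synthesis, was at 1004 and 1346 in WT 4 leaves and at 1488 and 1509 in ltm 6 leaves (0.37, adjusted p = 0.55). Of the 4 tested genes listed for trichome and epidermis, 2 were lower at a limma p below 0.05 before adjustment (4.45% of all genes). The median of the 4 was -0.47, or -0.27 against WT 4 leaves A alone and -0.67 against B alone. The summed values of the 5 genes listed there, all with reads in every group, were 6090 and 6562 in WT 4 leaves and between 5558 and 5829 in ltm 6 leaves. None of the genes of these 7 lists was called by limma, edgeR or DESeq2.

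The reverse pair of groups, ltm 4 leaves against WT 6 leaves, uses the 4 libraries that the comparison above leaves out. Both comparisons come from the same fits, in which the spread of each gene is estimated from all 8 libraries. Its median absolute log2 difference was 0.171, and limma called 1 gene there (0.00535%), again Solyc01g100600, with a log2 difference of 2.63 and an adjusted p of 0.0018. DESeq2 called 88 genes (0.48%). Of the 1680 genes with a limma p below 0.05 in the comparison of ltm 6 leaves with WT 4 leaves, 838 (49.9%) had the same sign in the reverse pair, against 46.3% of all genes. Of DESeq2's 67 genes, 47 (70.1%) had the same sign. At a limma p below 0.05, 29 of the 67 (43.3%) had the same sign, against 4.69% of all genes. The opposite sign at that p was found for 7 of them (10.4%), against 4.92% of all genes. Genes called with a small spread keep it in the reverse pair. These shares were thus partly fixed in advance and do not test the calls. Of the 10 largest differences in each direction, 9 of the higher and 6 of the lower genes had the same sign, against 46.3% of all genes. The 67 held 2 genes, and each set of 10 held 1, that passed the minimum only through the group where they were high. The B libraries with 4 leaves deviate together and stand on opposite sides of these comparisons.

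The floral genes differed between these comparisons. Over the 10 tested members of the list the median log2 difference was 0.17 for ltm 6 leaves against WT 4 leaves and -1.35 for ltm 4 leaves against WT 6 leaves, where 9 were lower at a limma p below 0.05 before adjustment (4.62% of all genes) and DESeq2 called 4. MBP20 had log2 differences of 0.72 and -4.97. Solyc01g092950 had -0.14 and -1.33. TKN1 was higher in the mutant in both, by 1.12 and 0.80, and Solyc05g050590 was at 0 in every mutant library.

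**Figure D5:**
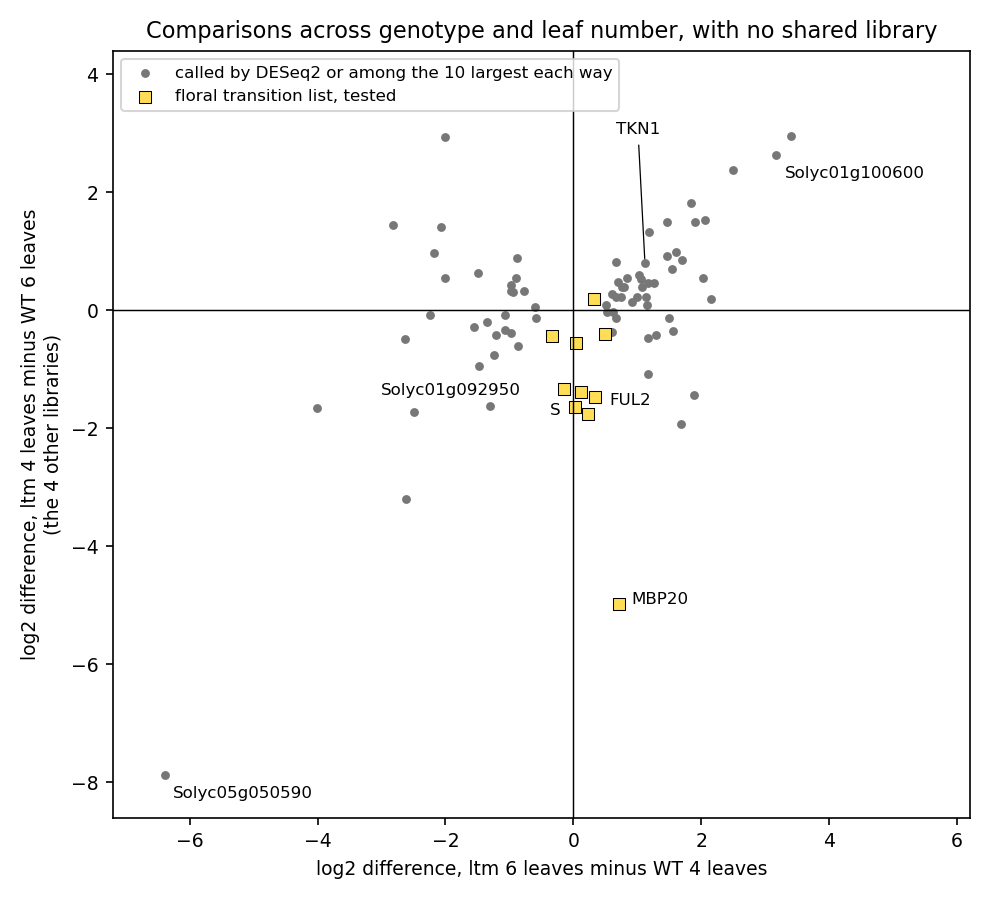
Log2 difference of ltm 6 leaves minus WT 4 leaves (horizontal axis) and of ltm 4 leaves minus WT 6 leaves (vertical axis) for the genes called by DESeq2 or among the 10 largest each way (grey) and the tested floral transition genes (yellow squares). Solyc01g100600 lies at 3.18 and 2.63, while MBP20 lies at 0.72 and -4.97.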

How the data were processed

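Normalized read counts of 8 libraries, 2 per group, were analysed. The groups were taken from the sample titles and the columns were matched through the sample descriptions. The authors deposited signal values, which are read counts per gene over the size factor of each library: 100% of them were whole multiples of 1 read (tolerance 1e-06 of the read number), with size factors from 0.883 to 1.09. The submitters' processing notes name DESeq2 1.6.3, HTSeq 0.6.1p1 and TopHat2 2.0.10. The genome build and the counting strand are not given in the sources used here. As the values were normalized and not raw counts, log2(value + 1) was modelled with limma 3.58.1 (trend, R 4.3.3) over all 8 libraries with a mean per group, two-sided, with Benjamini-Hochberg adjustment over 18697 genes and a threshold of 0.05, as the design had foreseen for that case. The recovered reads were also tested with DESeq2 1.42.0 and edgeR 4.0.16. Simulated data for this comparison had 18480 genes in the step, with 50 changed at each size. There limma found 54% of the 2-fold, 96% of the 4-fold and 100% of the 8-fold changes, and 14 of its 189 calls were false. The changes were planted in genes with a mean of at least 50, and each simulated library was drawn independently. Some real libraries deviate together, so these shares are not detection rates for the real data. Solyc01g081250, 16.05-fold lower in ltm 6 leaves with WT 4 leaves libraries that differed several-fold, was not called (limma adjusted p = 0.33). Reads are not independent molecules, so counting intervals and floors cover counting error only.

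Named genes were those called, the 10 largest differences each way with a limma p below 0.05, no overlap and a mean of at least 50 in the higher group, the calls of the other tools, every member of the floral transition, meristem and boundary lists, and members of other lists with the smallest p. PRO, J2, TAP3, TAG1, TAGL1, Solyc08g067230 and TKN1's values in other comparisons were added after values were seen. Unnamed identifiers are summarised beyond 2 in each direction, apart from the 2 nearest to GOB and Solyc01g100620. The genes and lists were chosen with earlier results of these data known, and 10 of the 16 lists were drawn up once the table was known. Gene names were set down from general knowledge and compared with RefSeq names (assembly SLM_r2.1): 33 of 42 pairs of the first 6 lists and 60 of 144 further ones matched on the same chromosome, with 0 of 12 for clock, 1 of 22 for heat shock, 1 of 5 for trichome and 2 of 15 for SBP-box. Genes without a match are given by identifier.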

Additional observations from a re-analysis of the deposited data

How the results depend on the processing

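The call of Solyc01g100600 held under every alternative run with limma and edgeR: other pseudocounts, filters and scalings, no trend, only the 4 libraries of the comparison, each library left out in turn (1 call each, log2 difference 3.11 to 3.25), and without both 4 leaves B libraries, an alternative chosen after seeing the data. DESeq2 called 67 genes, 2 of them in the lists. The letters shared by the groups give only 2 pairs here, so they were treated as names: deviations of A libraries around the mean of their group correlated at 0.202 between WT 4 leaves and ltm 6 leaves and between 0.102 and 0.531 over all groups. With the replicate block limma called 1 gene and 0 list members, and 15003 intervals lay within 2-fold. That count was 12274 to 15013 with a library left out, 14319 without both 4 leaves B libraries and 8743 with a margin of 1.5-fold; the list calls stayed at 0 with any library left out, and the median absolute log2 difference was 0.162 to 0.232. TMM and upper quartile scaling moved the median of all genes by -0.0018 and 0.010.

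Of 2294 values of 110 genes under the alternatives, 2203 kept direction and side of the threshold, 66 passed it with DESeq2 only, and 25, of 10 genes near 0, changed sign. With a library left out these ranged from -0.32 to 0.37 for S, -0.16 to 0.24 for J, -0.20 to 0.66 for FUL1, -0.54 to 0.76 for FYFL, -0.21 to 0.30 for WUS, -0.33 to 0.18 for CLV3, -0.32 to 0.13 for FAB, -0.056 to 0.11 for Solyc11g064850, -0.22 to 0.081 for BOP1 and -0.29 to 0.11 for Solyc04g008480. Without both 4 leaves B libraries S was -0.16, J -0.16, FYFL -0.54, WUS -0.21 and Solyc11g064850 -0.056; FYFL was -0.036 with edgeR and -0.035 with DESeq2. The cause was not tested. Under a mean of 50, 13.6% of intervals lay within 2-fold.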
